A study of Mus musculus with 6 samples.

Results

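Interferon-stimulated genes are the transcripts that cells raise after an interferon binds its receptor. The 38 genes described here were taken by name from the 45706 genes of the count table: 12 of the Ifit, Oas and Mx families (called the type I part below), 11 of the Gbp and immunity-related GTPase families together with Irf1 (the interferon gamma part), and 15 other effectors, sensors and transcription factors. All 38 were found in the table and all 38 had enough counts to be tested. The RNA came from mouse liver, in 3 libraries labelled as wild type (named WT 1, WT 2 and WT 3) and 3 labelled as ENTPD-8 knockout (named KO 1, KO 2 and KO 3). NTPDase8, the product of Entpd8, breaks down extracellular nucleotides; the series asks about its role in liver ischemia. The labels name a specific pathogen-free facility and give no strain, sex, age, knockout method or treatment, so whether these livers had been made ischemic is not known here. Nor do they state whether each library is a different animal. The p-values therefore reflect library-to-library spread, which may be technical.

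Type I interferons signal through a receptor made of Ifnar1 and Ifnar2, the kinases Jak1 and Tyk2, and a complex holding Stat2 and Irf9 that binds a DNA element called ISRE. Interferon gamma signals through Ifngr1 and Ifngr2, Jak1 and Jak2, and acts on genes through a DNA element called GAS, and it strongly induces Irf1, a transcription factor that then acts on other genes. The Ifit, Oas and Mx proteins act against viral RNA and viral particles, while guanylate-binding proteins (Gbp) and immunity-related GTPases act on membranes around intracellular microbes. Many members respond to both kinds of interferon, so the split into parts follows gene family and not a measured stimulus.

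Library totals ran from 32768774 to 46473531 counts. Entpd8 itself had 1416, 876 and 2034 counts in WT 1, WT 2 and WT 3 and 15, 29 and 52 counts in KO 1, KO 2 and KO 3, so every knockout library was far below every wild-type library. Of 14069 genes tested with edgeR's quasi-likelihood test, 20.4% passed at an adjusted p under 0.05, 9.8% as higher and 10.6% as lower in knockout livers; without KO 1 the number called in all was 603, not 2871. Transcripts of the mitochondrial genome took 6.52% to 8.34% of wild-type and 10.1% to 11.7% of knockout libraries. Bulk RNA cannot tell fewer cells of a type from less RNA per cell.

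Matches to ISRE and GAS can be seen in the DNA just before some members' start sites in both parts, and 6 members were chosen to show them: a pair from the Ifit cluster, the pair of Oas genes that fell, and Irf1 and Gbp5 from the gamma part. Each line gives 170 bases before the RefSeq start in GRCm38.p6, 5′ to 3′ on the gene's strand. Capitals mark every match to the ISRE core (GAAA, any 2 bases, GAAA, on either strand) or to GAS (TTCNNNGAA, which reads alike on both strands).
Ifit1 (chr19:34640719-34640888, plus strand): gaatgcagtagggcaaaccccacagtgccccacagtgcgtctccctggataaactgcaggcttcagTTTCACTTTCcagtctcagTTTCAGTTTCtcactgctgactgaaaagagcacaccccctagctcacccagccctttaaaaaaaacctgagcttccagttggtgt
Ifit3 (chr19:34583359-34583528, plus strand): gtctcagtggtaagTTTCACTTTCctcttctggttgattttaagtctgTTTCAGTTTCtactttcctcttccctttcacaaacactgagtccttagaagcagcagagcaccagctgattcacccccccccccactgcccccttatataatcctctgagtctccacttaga
Oas1g (chr5:120887614-120887783, minus strand): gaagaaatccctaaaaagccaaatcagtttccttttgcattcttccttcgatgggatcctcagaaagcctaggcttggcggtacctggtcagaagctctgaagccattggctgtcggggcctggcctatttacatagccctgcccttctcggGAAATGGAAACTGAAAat
Oas3 (chr5:120777660-120777829, minus strand): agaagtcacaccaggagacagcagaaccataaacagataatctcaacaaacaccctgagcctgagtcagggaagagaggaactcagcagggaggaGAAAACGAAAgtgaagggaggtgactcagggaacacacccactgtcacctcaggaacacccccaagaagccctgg
Irf1 (chr11:53769844-53770013, plus strand): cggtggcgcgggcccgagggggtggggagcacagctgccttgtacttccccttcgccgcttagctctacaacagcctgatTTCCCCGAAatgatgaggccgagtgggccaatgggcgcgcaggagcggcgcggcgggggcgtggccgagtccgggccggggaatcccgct
Gbp5 (chr3:142496764-142496933, plus strand): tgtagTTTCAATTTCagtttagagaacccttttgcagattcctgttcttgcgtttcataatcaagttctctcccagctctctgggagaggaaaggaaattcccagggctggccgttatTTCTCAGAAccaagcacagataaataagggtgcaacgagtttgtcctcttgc
Ifit1 and Ifit3 each held an inverted copy reading TTTCACTTTC followed by another reading TTTCAGTTTC, starting 104 and 85 bases before the start in Ifit1 and 156 and 122 bases before it in Ifit3. In Oas1g the matches GAAATGGAAA and GAAACTGAAA shared bases and began 18 and 12 bases before the start, and Oas3 held GAAAACGAAA at 75 bases. Irf1 held only GAS, at 90 bases, and Gbp5 held an ISRE core at 165 bases and GAS at 52 bases.

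Over the 250 bases before a start, RefSeq windows were at hand for 28 of the 38 members. An ISRE core was in the windows of 16 of these 28 genes, against 3.46% of 27025 genes with a window, and GAS in 7, against 8.13%. By part, the ISRE core was found for 6 of 9 type I genes, 6 of 8 gamma genes and 4 of 11 others, and GAS for 2, 4 and 1 of them. Of the type I genes, Oasl1 and Ifit2, described below as those that rose, had no ISRE core in their windows. Nor did Oasl2, which did not pass. An ISRE core was present for Oas1g and Oas3, which fell, and for Ifit1, Ifit3, Ifit3b and Oas1a, which did not pass. Whether a match goes with direction was not tested. A match describes letters and no measured binding.

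The 38 genes did not move as a block. In knockout livers 4 rose (Oasl1, Gbp4, Ifit2 and Irf1), 4 fell (Zbp1, Oas1g, Oas3 and Stat2), and 30 did not pass the test. These 8 calls stand against 20.4% of all genes tested. Each direction held 10.5% of the members, against 9.8% of all genes for rises and 10.6% for falls. The median log2 fold change was -0.16 for the members and -0.02 for all genes. Without WT 2 there were 7 rises and 2 falls and the members' median was 0.04. Rises and falls numbered 1 and 3 without WT 1, 1 and 1 without KO 1, and 2 and 2 without KO 3. Calls over all genes tested moved too. They were 1379 rises and 1492 falls with all libraries, 385 and 218 without KO 1, and 1390 and 1690 without WT 2. Both directions also had fewer calls over all genes without WT 1, WT 3, KO 2 or KO 3. A loss of member calls in those fits is therefore not particular to the members. Groups did not overlap for 5 members with knockout higher and 8 with knockout lower, against backgrounds of 18.7% and 22.0%.

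**Figure D1:**
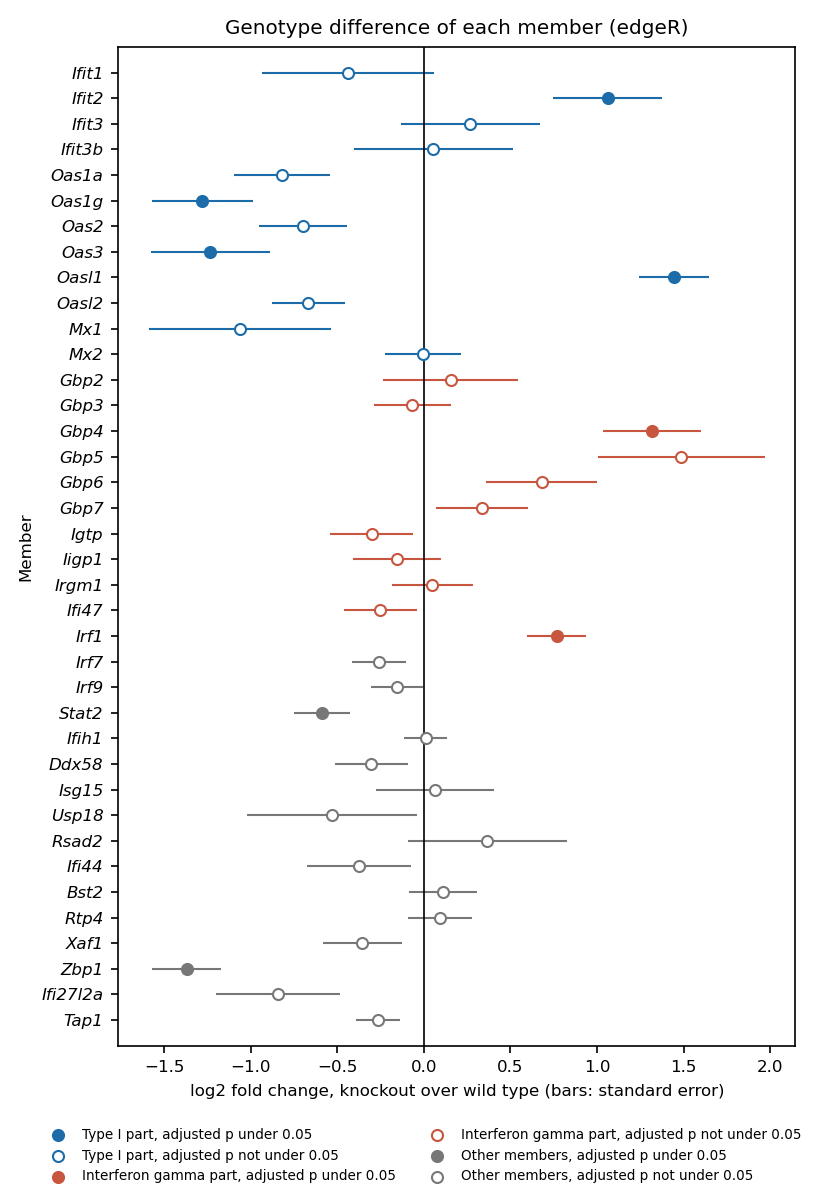
Log2 fold change (knockout over wild type, horizontal axis) of each of the 38 members with its standard error as a bar, from edgeR on 3 libraries per group; filled points have an adjusted p under 0.05. The members run from -1.37 (Zbp1) to 1.49 (Gbp5, not past the threshold), with 8 filled points.

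Within the type I part, Oas genes moved in both directions. Oasl1, an inhibitor of Irf7 translation, rose, while Oas1g and Oas3, which make the 2-5A signal that activates RNase L or belong to that gene cluster, fell. Of the 12 genes of the part, 2 rose and 2 fell (16.7% each way, against 9.8% and 10.6% of all genes tested), and the median log2 fold change was -0.55, against -0.02 for all genes.

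Oasl1 stood at 7.16, 9.99 and 8.83 CPM (library-scaled counts) in WT 1, WT 2 and WT 3 and at 26.0, 27.2 and 17.5 CPM in KO 1, KO 2 and KO 3. Every knockout library lay above every wild-type library. The means were 8.66 ± 1.42 and 23.6 ± 5.28 CPM (SD, n = 3 per group), a log2 fold change of 1.44 ± 0.20 (SE, edgeR adjusted p = 0.00508). The gene lies on chromosome 5 from 114923240 to 114937915 (GRCm38, plus strand), next to Oasl2. Leaving out any 1 library kept the call (adjusted p up to 0.0286).

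Oas3, whose protein makes 2-5A, stood at 2.67, 2.87 and 1.69 CPM in WT 1, WT 2 and WT 3. In KO 1, KO 2 and KO 3 it stood at 0.713, 1.40 and 0.967 CPM. The knockout libraries were all lower, although WT 3 and KO 2 came close. Its log2 fold change was -1.23 ± 0.34 (adjusted p = 0.0393). Oas1g, a member of the Oas1 gene cluster, had 1.46, 1.28 and 1.37 CPM in the wild-type libraries and 0.498, 0.676 and 0.511 CPM in the knockout libraries, in the order 1 to 3. The groups stood well apart at this low level (log2 fold change -1.28 ± 0.29, adjusted p = 0.0215). Of the 50-base windows in Oas1g transcripts, 45.7% also occur in other genes, nearly all in Oas1a, so its counts depend on how reads were shared out. Oas3 did not pass when WT 1, WT 2, KO 1 or KO 3 was left out (highest adjusted p 0.152) or with the length trend removed (0.0584), nor did Oas1g when WT 1, KO 1 or KO 3 was left out (highest adjusted p 0.107).

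The other Oas genes leaned the same way as Oas3 without passing in the main edgeR fit. Oas1a had 3.57 ± 0.348 CPM over the wild-type libraries and 2.03 ± 0.615 CPM over the knockout libraries (SD, n = 3 per group; log2 fold change -0.82 ± 0.28, edgeR adjusted p = 0.0704). Oas2 had 3.68 ± 0.351 and 2.26 ± 0.651 CPM (adjusted p = 0.0870). Oasl2, whose product, like that of Oasl1, carries ubiquitin-like domains, had 5.19 ± 0.413 and 3.27 ± 0.706 CPM (adjusted p = 0.0587). Oas1a passed in DESeq2 (adjusted p = 0.0341) and in edgeR with the length trend removed (0.0417). Oasl2 passed in DESeq2 (0.0338) and in edgeR with upper-quartile scaling (0.0461) or without KO 3 (0.0434). Oas2 passed under no alternative. In all of Oas1a, Oas1g, Oas2, Oas3 and Oasl2 the 3 knockout libraries were below the 3 wild-type libraries, opposite to Oasl1. The same held for 22.0% of all genes tested. Of the 50-base windows of Oas1a, 57.6% also occur in Oas1g, so the levels of this pair are not independent.

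The Ifit genes, which encode RNA-binding proteins that block translation of foreign transcripts, gave 1 rise among 4. Ifit2 had 2.53, 5.56 and 2.53 CPM in WT 1, WT 2 and WT 3 and 7.10, 8.17 and 6.96 CPM in KO 1, KO 2 and KO 3. WT 2 was more than 2 times the other wild-type libraries and still below the knockout libraries. The log2 fold change was 1.06 ± 0.32 (adjusted p = 0.0481), just under the threshold, and missed it with upper-quartile scaling (0.0529) and with the length trend removed (0.0519). Without WT 2 it was 1.55 (adjusted p = 0.00448), and without any 1 other library it did not pass (adjusted p up to 0.130).

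Ifit1, Ifit3 and Ifit3b were set apart by WT 2 instead. Ifit1 stood at 5.21, 20.6 and 7.36 CPM in WT 1, WT 2 and WT 3 and at 8.35, 10.1 and 6.12 CPM in KO 1, KO 2 and KO 3. WT 2 was 3.28 times the mean of the other wild-type libraries and the highest of all 6. Its log2 fold change was -0.44 ± 0.50 (adjusted p = 0.568) and turned to 0.38 without WT 2 (adjusted p = 0.321). Ifit3 had 5.94, 19.2 and 9.80 CPM in the wild-type and 14.5, 16.9 and 10.7 CPM in the knockout libraries (log2 fold change 0.27, or 0.83 without WT 2, adjusted p = 0.670 and 0.0708). Ifit3b gave a log2 fold change of 0.05 ± 0.46. It shares sequence with its neighbour: 51.2% of the 50-base windows of Ifit3 also occur in Ifit3b.

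The Mx genes encode dynamin-like GTPases that trap viral particles, and neither passed. Mx1 had 1.05, 2.31 and 1.36 CPM in WT 1, WT 2 and WT 3 and 0.662, 1.30 and 0.315 CPM in KO 1, KO 2 and KO 3, with overlap between the groups (log2 fold change -1.06 ± 0.53, adjusted p = 0.187). For Mx2 the means were 7.94 ± 1.83 and 7.92 ± 1.62 CPM (SD, n = 3 per group; log2 fold change -0.01 ± 0.22).

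**Figure D2:**
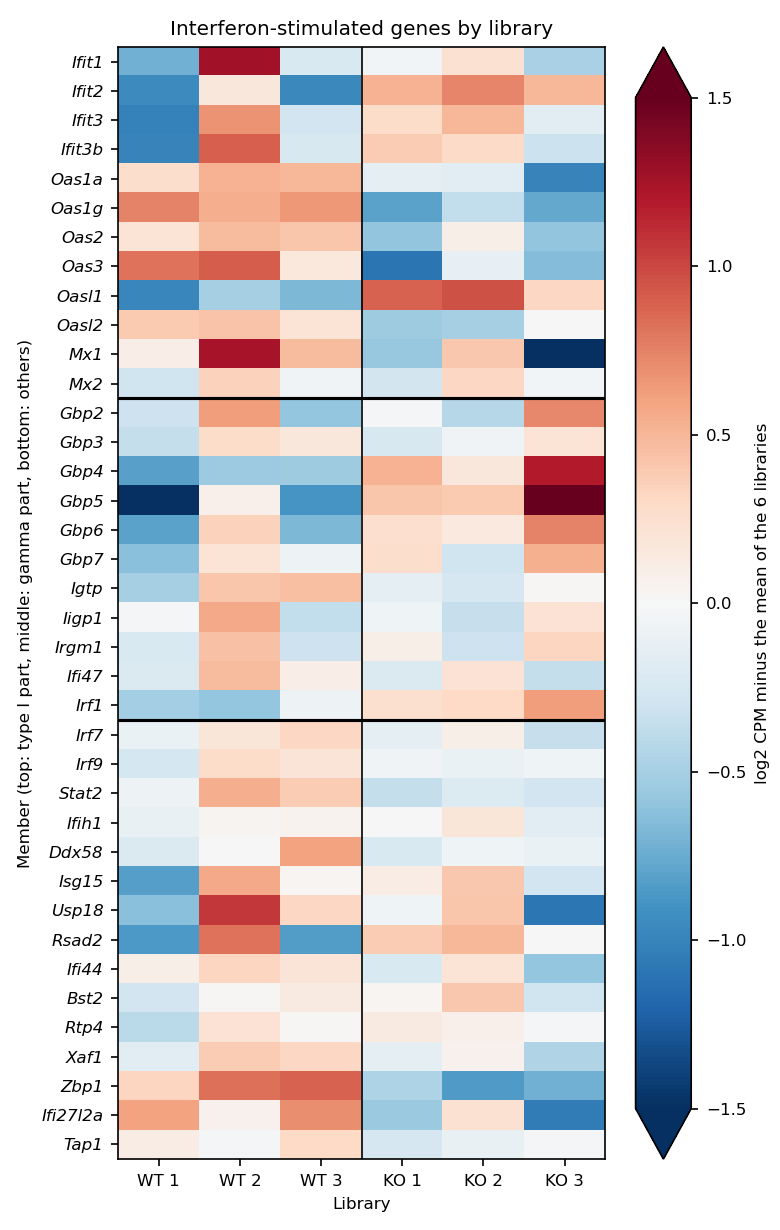
Log2 CPM of each member (rows) in each of the 6 libraries (columns) minus that gene's mean over the libraries, with red for higher and blue for lower, and values beyond the ends of the scale in its end colours; black lines separate the type I part, the gamma part and the other members. WT 2 is the highest of the 6 libraries for 9 of 12 type I members, and KO 3 for 6 of 11 gamma members. Over all genes tested these shares are 17.3% for WT 2 and 18.1% for KO 3.

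In the interferon gamma part 2 of 11 genes rose, Gbp4 and Irf1 (18.2%, against 9.8% of all genes tested), and the median log2 fold change was 0.16, against -0.02 for all genes. None fell (10.6% of all genes did) in edgeR's test, and none was lower at an unadjusted p under 0.05 or in DESeq2 or limma voom. The part held different families. The 6 Gbp members and Irf1 had mostly positive values, and the 4 immunity-related GTPase members lay between -0.30 and 0.05 on the log2 fold change scale. Rises numbered 0 without WT 1 or KO 1, 1 without KO 3 and 4 without WT 2. Over all genes tested, rises were also fewer without WT 1, KO 1 or KO 3. They numbered 385 without KO 1 and 1390 without WT 2, against 1379 with all libraries.

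Irf1 had 20.7, 19.6 and 27.8 CPM in WT 1, WT 2 and WT 3 and 34.5, 36.0 and 45.5 CPM in KO 1, KO 2 and KO 3. All knockout libraries were above all wild-type libraries, and WT 2 was not raised for this gene. The log2 fold change was 0.77 ± 0.17 (adjusted p = 0.0198). Irf1 lies on chromosome 11 from 53770014 to 53778374 (GRCm38, plus strand), with the GAS match shown above. Leaving out WT 1, KO 1 or KO 3 ended the call (highest adjusted p 0.0658), as did scaling by library totals alone (adjusted p = 0.0555).

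Gbp4, a guanylate-binding protein gene of the chromosome 5 cluster, had 2.12, 2.56 and 2.58 CPM in the wild-type libraries and 5.37, 4.21 and 8.54 CPM in the knockout libraries, in the order 1 to 3. The wild-type values were tight and the knockout values spread, with KO 3 highest. The log2 fold change was 1.32 ± 0.28 (adjusted p = 0.0179), and leaving out WT 1 or KO 1 ended the call (highest adjusted p 0.0580). Gbp5, which promotes inflammasome assembly, had 0.468, 1.41 and 0.722 CPM in WT 1, WT 2 and WT 3 and 1.78, 1.74 and 3.79 CPM in KO 1, KO 2 and KO 3. The groups did not overlap, and the log2 fold change of 1.49 ± 0.48 did not pass (adjusted p = 0.0629). Without WT 2 it was 2.03 and passed (adjusted p = 0.0256). With all libraries Gbp5 also passed in DESeq2 (adjusted p = 0.0126) and in edgeR with no low-count filter (0.0440).

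For Gbp6, WT 2 was again apart from the other wild-type libraries. It had 10.7, 23.7 and 11.6 CPM in WT 1, WT 2 and WT 3 and 22.1, 20.6 and 31.1 CPM in KO 1, KO 2 and KO 3. With WT 2 the log2 fold change was 0.68 ± 0.32 (adjusted p = 0.175), and without it 1.14 (adjusted p = 0.0114). Of the 50-base windows of Gbp6, 65.0% occur in the overlapping model Gm43302, so this level is uncertain. Gbp2, Gbp3 and Gbp7, of the chromosome 3 cluster, had log2 fold changes of 0.16 ± 0.39, -0.07 ± 0.22 and 0.34 ± 0.26 and adjusted p of 0.810, 0.857 and 0.401. KO 3 was the highest library for 5 of the 6 Gbp genes, against 18.1% of all genes tested.

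None of the 4 immunity-related GTPases among the members passed, in edgeR, DESeq2 or limma voom or at an unadjusted p under 0.05. Iigp1, a GTPase that attacks parasite vacuoles, had 495, 746 and 390.1 CPM in WT 1, WT 2 and WT 3 and 482, 396 and 585 CPM in KO 1, KO 2 and KO 3. The groups overlapped (log2 fold change -0.16 ± 0.25). Irgm1, which guards host membranes against these GTPases, had 74.5 ± 22.4 and 77.0 ± 16.2 CPM (SD, n = 3 per group; log2 fold change 0.05 ± 0.23). Igtp and Ifi47 had log2 fold changes of -0.30 ± 0.24 and -0.25 ± 0.21. Igtp passed only without WT 1 (log2 fold change -0.56, adjusted p = 0.0433).

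Genes of these same families outside the 38, named here after their values were seen, moved in both directions. Gbp2b fell, with 1.24, 0.922 and 1.11 CPM in WT 1, WT 2 and WT 3 and 0.382, 0.623 and 0.252 CPM in KO 1, KO 2 and KO 3 (log2 fold change -1.38 ± 0.40, adjusted p = 0.0430), while Gbp8, Gbp9, Gbp10 and Gbp11 did not pass. Irgm2 fell (-0.67 ± 0.20, adjusted p = 0.0470) and Tgtp2 rose (1.35 ± 0.35, adjusted p = 0.0323), both immunity-related GTPases, and Tgtp1 did not pass (-0.14 ± 0.27). In none of Gbp2b, Irgm2 and Tgtp2 did the groups overlap, but these genes were picked because they had passed. Over all genes tested, 18.7% had no overlap with knockout higher and 22.0% with knockout lower. Of the 50-base windows of the member Igtp, 11.8% also occur in Irgm2, so the levels of this pair are not fully independent. Shared sequence was checked for the 38 members only. How reads were split between Tgtp1 and Tgtp2 is therefore not known here, and the rise of Tgtp2 depends on that split. With single libraries left out, the call of Gbp2b held only without WT 2 or KO 2, that of Irgm2 only without WT 1 and that of Tgtp2 only without KO 2 (adjusted p to 0.163 otherwise). Irgm2 also missed the threshold with RLE scaling (0.0541), library totals alone (0.0539), limma voom (0.0608) and the length trend removed (0.0559), and Tgtp2 with limma voom (0.0595).

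**Figure D3:**
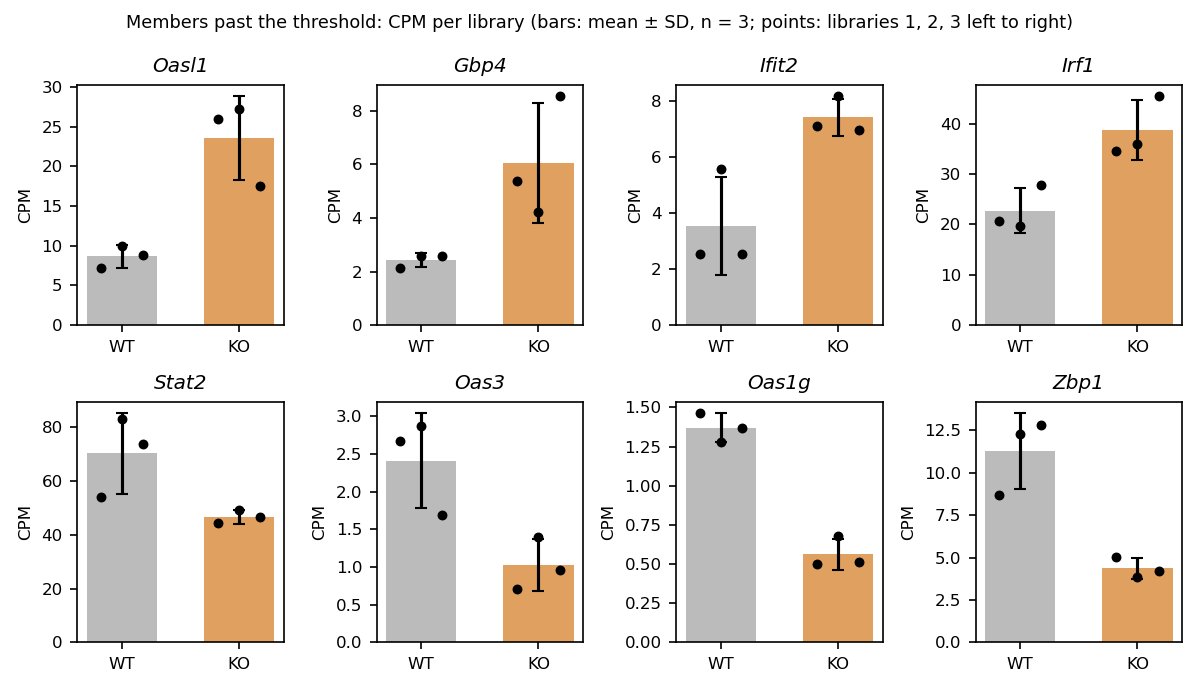
CPM in each library (points, libraries 1 to 3 from left to right) with the mean and SD (bars, n = 3 per group) for the 8 members past the threshold; each panel has its own axis from 0. The upper row rose (Oasl1, Gbp4, Ifit2, Irf1) and the lower row fell (Stat2, Oas3, Oas1g, Zbp1), and in none do the groups overlap.

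The type I and gamma parts were then set side by side. The mean log2 CPM of the type I part was 1.92, 2.62 and 2.09 in WT 1, WT 2 and WT 3 and 2.04, 2.32 and 1.86 in KO 1, KO 2 and KO 3, so the groups overlapped. For the gamma part the means were 3.60, 4.26 and 3.85 in the wild-type and 4.15, 4.01 and 4.53 in the knockout libraries, again with overlap. The gamma part exceeded the type I part by 1.69, 1.65 and 1.75 in WT 1, WT 2 and WT 3 and by 2.10, 1.70 and 2.68 in KO 1, KO 2 and KO 3, so KO 2 lay inside the wild-type range. The difference between the parts was not tested.

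Single libraries moved both medians. The type I median ran from -0.71 (without WT 1) to -0.22 (without WT 2) and was negative whichever library was left out. The families within the part differed: with all libraries the median was -0.76 for Oas and -0.53 for Mx genes but 0.16 for Ifit genes. The gamma median ran from -0.10 (without KO 3) to 0.53 (without WT 2) and was -0.01 without WT 3. WT 2 was the highest of the 6 libraries for 21 of 38 members (55.3%), against 17.3% of all genes tested.

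**Figure D4:**
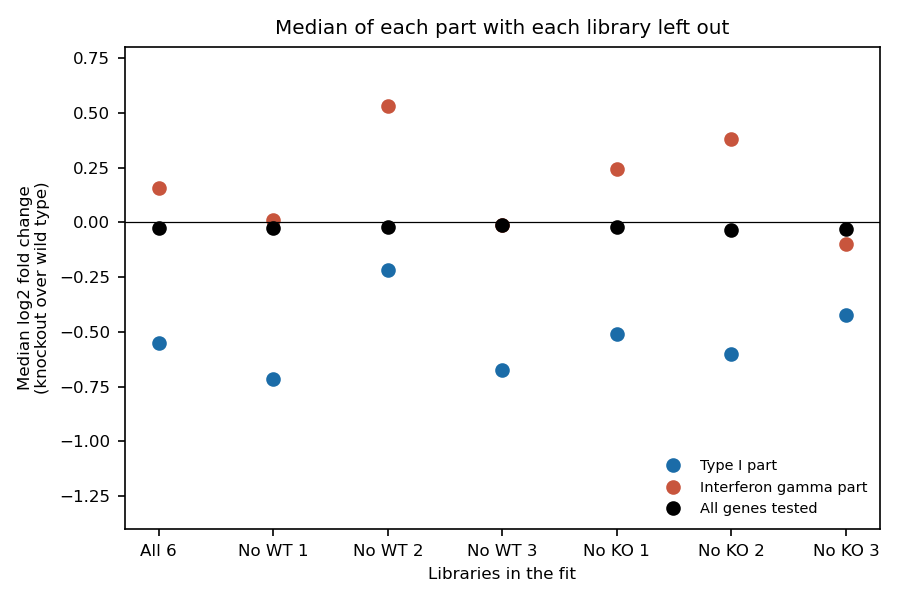
Median log2 fold change (knockout over wild type) of the type I part, the gamma part and all genes tested, with all 6 libraries and with each library left out in turn. The type I median stays below 0 and the gamma median lies between -0.10 and 0.53; without WT 3 the gamma point is hidden behind that of all genes.

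Of the other effectors, Zbp1 fell. Zbp1 senses Z-form nucleic acids and can start necroptosis. It had 8.71, 12.3 and 12.8 CPM in WT 1, WT 2 and WT 3 and 5.04, 3.84 and 4.21 CPM in KO 1, KO 2 and KO 3. The groups were far apart, at a log2 fold change of -1.37 ± 0.20 (adjusted p = 0.00558), and the call held with any 1 library left out (adjusted p up to 0.0254). The gene lies on chromosome 2 from 173206612 to 173218923 (GRCm38, minus strand).

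Rsad2, which encodes viperin, followed WT 2 as Ifit1 did. Its values were 11.05, 35.4 and 11.2 CPM in WT 1, WT 2 and WT 3 and 26.0, 28.3 and 20.1 CPM in KO 1, KO 2 and KO 3. WT 2 was 3.18 times the mean of the other wild-type libraries, and WT 1 and WT 3 were below all knockout libraries. The log2 fold change was 0.37 ± 0.46 (adjusted p = 0.608), and without WT 2 it was 1.15 (adjusted p = 0.00718). Usp18, which removes Isg15 from proteins and damps the type I receptor, had 3.36, 10.8 and 6.41 CPM in the wild-type and 4.96, 6.90 and 2.44 CPM in the knockout libraries (log2 fold change -0.53 ± 0.49). Isg15, the ubiquitin-like modifier itself, had 11.3 ± 5.10 and 11.9 ± 2.78 CPM (SD, n = 3 per group; log2 fold change 0.06 ± 0.34).

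The remaining effectors differed by less than the test could call. Ifi27l2a had a wild-type mean of 2.97 ± 0.647 CPM and a knockout mean of 1.66 ± 0.753 CPM (log2 fold change -0.84 ± 0.36, edgeR adjusted p = 0.132, SD, n = 3 per group). The peptide transporter Tap1, which loads MHC class I, had 23.9 ± 2.71 and 19.8 ± 1.56 CPM (log2 fold change -0.27 ± 0.13, adjusted p = 0.172). Bst2, which tethers budding virus, was at 104 ± 15.0 and 113 ± 27.7 CPM (log2 fold change 0.11 ± 0.20). Log2 fold changes of Ifi44, Xaf1 and Rtp4 were -0.37, -0.36 and 0.09.

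Among the transcription factors, Stat2 fell. It had 53.9, 83.1 and 73.9 CPM in WT 1, WT 2 and WT 3 and 44.3, 49.2 and 46.7 CPM in KO 1, KO 2 and KO 3. The knockout values lay close together and WT 1 came nearest to them. The log2 fold change was -0.59 ± 0.16 (adjusted p = 0.0387), and the call held only without WT 1 among single libraries left out (adjusted p up to 0.153 without the others); it was lost with the length trend removed (0.0759). Its partner Irf9 had 28.5 ± 5.36 and 25.5 ± 0.436 CPM (SD, n = 3 per group; log2 fold change -0.16 ± 0.15), and Irf7, which amplifies type I interferon production, had 24.8 ± 3.45 and 20.7 ± 3.14 CPM (log2 fold change -0.26 ± 0.16). The RNA sensors stayed within their spread: Ifih1 (MDA5) gave 0.01 ± 0.12 and Ddx58 (RIG-I) -0.30 ± 0.21 on the log2 fold change scale.

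Per kilobase of exon, the levels of the members spanned a wide range in wild type. Bst2 (116 CPM per kb) and Iigp1 (93.4 CPM per kb) led, followed by Isg15 (15.0), Irgm1 (12.8), Stat2 (11.9) and Igtp (10.6). Lowest were Gbp5 (0.131 CPM per kb), Ifi44 (0.219), Gbp4 (0.323) and Oas3 (0.341). The members that passed the test thus included low transcripts such as Oas3 and Gbp4 and better expressed ones such as Stat2.

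Other genes of the interferon pathway, 106 named by role, were read next. Of the 94 tested, 6 rose and 14 fell (6.4% and 14.9%, against 9.8% and 10.6% of all genes), and their median log2 fold change was 0.01. Rises and falls numbered 4 and 8 without WT 1, 10 and 12 without WT 2, 5 and 8 without WT 3, 3 and 2 without KO 1, 5 and 5 without KO 2, and 3 and 7 without KO 3. Over all genes tested, both directions also had fewer calls in each of these fits except that without WT 2. There, rises and falls over all genes were 1390 and 1690, against 1379 and 1492 with all libraries. Ligands were almost absent: Ifna1, Ifna2, Ifna4, Ifna5, Ifne, Ifnl2 and Ifnl3 had no count in any library, Ifnb1 had 1 count in WT 2, and Ifnk had 1 to 6 counts. Ifng had 0 counts in all wild-type libraries, which allows up to 0.0833 CPM, and 3, 12 and 22 counts in KO 1, KO 2 and KO 3. Ifng was too low for the test, and KO 1 lay at the level that 0 counts allow. Among markers of T and NK cells, which make interferon gamma, 3 of 10 tested rose (Cd3g, Trbc2 and Gzmb), against 9.8% of all genes. Of the 14 listed, 1 (Cd2) was at 0 in some library. The summed level was 2.53 to 3.33 CPM in wild-type libraries and 7.30, 8.10 and 7.73 CPM in KO 1, KO 2 and KO 3. The part of these cells in the Ifng, Irf1 and Gbp4 values was not tested.

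Among receptors, Ifnar1 fell. It had 36.2, 39.0 and 38.2 CPM in WT 1, WT 2 and WT 3 and 26.1, 25.5 and 30.7 CPM in KO 1, KO 2 and KO 3 (log2 fold change -0.46 ± 0.11, adjusted p = 0.0283), with no overlap. The call was lost when WT 1, WT 3, KO 1 or KO 2 was left out (adjusted p of at most 0.145). Log2 fold changes were 0.09 for Ifnar2, 0.06 for Ifngr1, -0.01 for Ifngr2, 0.15 for Ifnlr1 and -0.44 for Il10rb, none past the threshold. Jak2, a kinase of the gamma receptor, had a log2 fold change of 0.77 ± 0.22 and rose (adjusted p = 0.0405). Among single libraries left out, its call held only without KO 2 (adjusted p to 0.110 for the others), and it was lost with library totals alone (0.0607). Jak1 (0.40 ± 0.15) and Tyk2 (-0.54 ± 0.17) did not pass, with adjusted p of 0.100 and 0.0532.

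The phosphatase Ptpn2, which dephosphorylates Jak1, rose. Its level was 29.8 ± 11.98 CPM in the wild-type libraries and 81.2 ± 5.97 CPM in the knockout libraries (SD, n = 3 per group; log2 fold change 1.45 ± 0.26, edgeR adjusted p = 0.0113). The E3 ligase Trim21 fell (-0.63 ± 0.16). Tlr3, the endosomal RNA receptor, and Mavs, the adaptor of Ifih1 and Ddx58, fell by 0.69 ± 0.18 and 0.59 ± 0.15 on the log2 scale. Among further induced genes, the chemokine Cxcl10 rose by 3.58 ± 0.40 and the MHC class I gene H2-Q4 by 0.74 ± 0.11. Those with the lowest p that fell were Parp14 (-0.82 ± 0.12), Dtx3l (-0.84 ± 0.13), Parp9 (-0.72 ± 0.14), which pairs with Dtx3l, and the RNA editor Adar (-0.63 ± 0.13). Of the 59 further induced genes tested, 4 rose and 10 fell (6.8% and 16.9%, against 9.8% and 10.6% of all genes). Without KO 1 the calls of Ptpn2, Parp9 and Adar were lost (adjusted p up to 0.0808). The call of Trim21 held only without WT 3, that of Tlr3 only without WT 2, and that of Mavs only without WT 1 or WT 2 (adjusted p up to 0.127 otherwise).

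Markers of macrophages and of plasmacytoid dendritic cells were counted as well. In the Kupffer cell and macrophage list 7 of 13 were lower in knockout livers and none higher, against 10.6% and 9.8% of all genes. The summed level was 168 to 351 CPM in wild-type and 87.8 to 120 CPM in knockout libraries, with no marker at 0. WT 2, the highest library for most type I members, was the lowest wild-type library in this list. For plasmacytoid dendritic cells 2 of 7 listed markers could be tested and edgeR called neither; the summed level was 27.9 to 63.3 CPM in wild-type and 23.8 to 33.2 CPM in knockout libraries, with Klk1, Cox6a2 and Pacsin1 at 0 in some. Their part in the falls of Zbp1, Oas1g, Oas3 and Stat2 was not tested.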

How the data were processed

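Poly(A)-enriched liver RNA of 6 libraries was measured, per the labels' protocols. Per the submitters' processing notes the tools were Trim Galore, STAR and Salmon, on GRCm38; tool versions: not given in the sources used here. Values deposited by the authors are expected counts (estimated counts per gene, not scaled), with 8.38% to 9.32% of values per library not whole. They were rounded, filtered with filterByExpr, scaled by TMM, and tested with edgeR 4.0.16 (glmQLFit, robust, R 4.3.3) on genotype, two-sided, with Benjamini-Hochberg adjustment over 14069 genes and a threshold of 0.05. SE is the size of the log2 fold change over the root of F. CPM uses TMM-scaled totals of the genes tested, and mean log2 CPM adds 0.5. Gene positions and exon lengths are from GENCODE M21 (GRCm38) and promoter windows from RefSeq. The fit was tested on simulated data. Pairs of libraries within a group had a chi-square per gene of 34.5 to 138, so none was treated as a duplicate.

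The members and lists were chosen with earlier results of these data known. Every member is named; of the other pathway genes, those called (up to 6 per role by lowest p), all receptors and the kinases; Stat3, in the same list as the kinases, did not pass (adjusted p = 0.623), and 1 gene of that list is not reported here. Cell type lists of monocytes, neutrophils, B and plasma cells, endothelial, stellate and hepatocyte markers were also counted: 1 of 7, 0 of 7, 0 of 4, 1 of 8, 1 of 7 and 1 of 9 tested fell, and 0, 0, 3, 0, 0 and 1 rose. Over all genes tested, 10.6% fell and 9.8% rose. Alternatives were RLE, upper-quartile or total-count scaling, other filters, DESeq2 1.42.0, limma voom (3.58.1), a replicate block, the length trend removed (lowess span 0.5) and each library left out; leaving out mitochondrial and hemoglobin genes was added after the data were seen.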

Additional observations from a re-analysis of the deposited data

How the results depend on the processing

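Of 608 member values under alternatives, 566 stayed on their side of the threshold, 30 lost and 12 gained a call, and no member past the threshold changed sign. Left-out libraries gave 603 to 3080 genes called in all, 1 to 7 members higher and 1 to 3 lower, 1 to 2 type I genes higher and 0 to 2 lower, 0 to 4 gamma genes higher and 0 to 1 lower, and 3 to 10 other pathway genes higher and 2 to 12 lower. Type I genes higher were 1 with upper-quartile scaling and 1 with the length trend removed, gamma genes higher were 1 with library totals alone, and DESeq2 called 4 type I genes lower and 13 other pathway genes higher. Leaving out mitochondrial and hemoglobin genes kept the same 8 members. Same-numbered libraries did not deviate together (correlations -0.08, 0.01 and -0.09), so the numbers were not taken as pairs; with a replicate block the genes called between genotypes were 1468, with 1 member lower, 0 type I genes lower (2 lower in the fit without a block; Oas1g, Oas3 and Stat2 lost) and 4 other pathway genes lower. Depth was lowest for Mx1, with 15 counts in KO 3, and Gbp5, with 17 counts in WT 1.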
